A study of Mus musculus with 12 samples.

Results

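Open chromatin of stem cell enriched intestinal epithelium (Sox9 Low) was compared with that of differentiated epithelium (Sox9 Negative) over every region in which either population had a consensus peak. Both populations were sorted from intestinal epithelial cells of C57Bl/6 mice by the level of a Sox9EGFP reporter, and the labels give no other genotype, treatment, age or segment of the intestine. Each population had 3 Omni-ATAC-seq libraries, from a series with 12 libraries, and the labels give 12000 cells collected per population. Its libraries were represented by 1 list of consensus peaks, so no value below has a replicate error and no test between populations could be made. Low and Negative peaks sharing 1 bp or more, or lying side by side, were joined into regions. Of the 210325 peaks in the 4 lists of the series, 103817 belonged to these 2 lists, and they gave 67524 merged regions. A region is called shared when both lists had a peak in it, and Low only or Negative only when 1 list had.

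The intestinal epithelium renews itself from stem cells at the base of the crypt. Their daughters divide, leave the crypt and mature into absorptive enterocytes and secretory cells. Sox9 is a transcription factor of the crypt base whose expression depends on Wnt signalling, and low expression of the reporter is known to mark cells enriched for crypt base stem cells, while reporter negative cells are mostly differentiated. A sorted fraction is a mixture, so a region missing from a list may be open in a minority of its cells. In the assay, Tn5 transposase cuts accessible DNA, which is found mostly at promoters, enhancers and other sites where regulatory proteins displace nucleosomes. Marker genes of the populations were not analysed here, because gene positions on mm9, the build of the lists, were not used. Regions are therefore described by mm9 position, width, spacing and neighbours.

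Most of what was open in differentiated cells was also listed in the stem cell enriched population, while a larger part of the Low list had no counterpart. Shared regions numbered 35461, or 52.5% of all regions (exact 95% interval 52.1 to 52.9%). Low only regions numbered 22671, or 33.6% (33.2 to 33.9%), and Negative only regions 9392, or 13.9% (13.6 to 14.2%). Seen from the Negative list, 79.1% of its regions were shared (78.7 to 79.4%), against 61.0% of the regions of the Low list (60.6 to 61.4%). These intervals are Clopper-Pearson intervals that cover counting error only and treat regions as independent.

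The excess of Low only over Negative only regions has the size of the difference between the lists. The Low list reached 58132 regions and the Negative list 44853, and the difference of 13279 equals the difference between the 2 one-list classes, as it must. The excess is therefore a statement on the length of the lists. Low only regions made up 70.7% of the one-list regions (70.2 to 71.2%). When the Low list was cut to its widest 45461 peaks, the length of the Negative list, this share was 50.9%, with 13512 Low only and 13013 Negative only regions. Lists of equal length make the one-list classes nearly equal by construction, so the share after the cut says nothing on the populations. The lists hold no read counts, so the part of sequencing depth in their length was not tested.

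**Figure D1:**
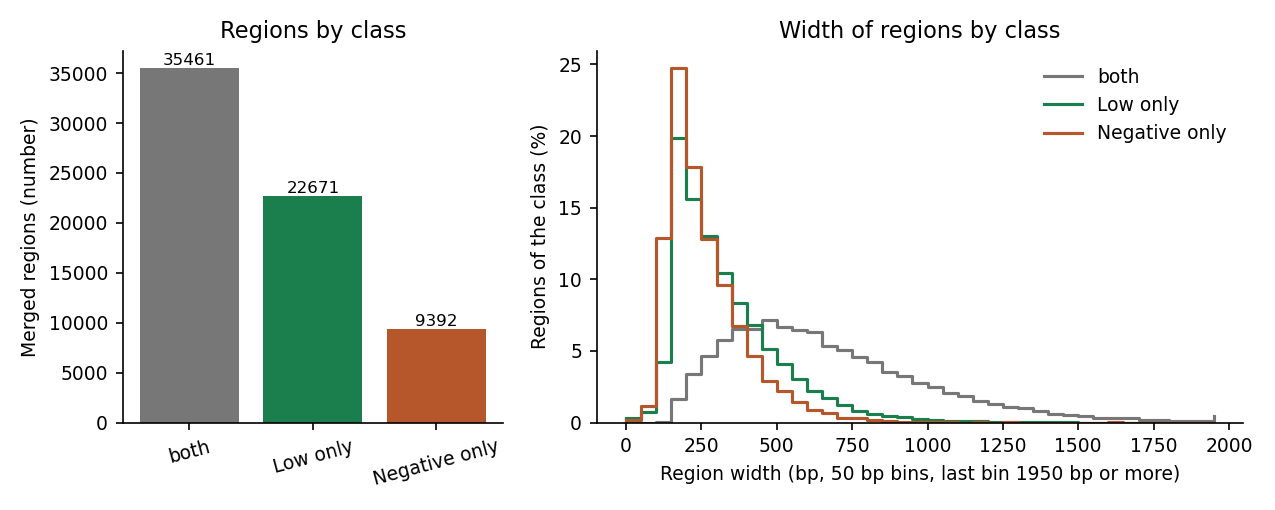
Left, number of merged regions that were shared by both lists, Low only or Negative only. Right, width of regions in bp for each class, as the percentage of the class in each 50 bp bin. Shared regions have a median of 608 bp and both one-list classes sit at narrower widths, Low only at 285 bp and Negative only at 227 bp.

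Counted in bases, the lists covered 34.0 Mb together and had 17.7 Mb in common, a Jaccard index (bases in both divided by bases in either) of 0.522. The bases of the Low list that the Negative list lacked came from whole regions more than from wider peaks. Of the 30.1 Mb in the Low list, 7.52 Mb (24.96%) lay in Low only regions. A further 4.90 Mb (16.3%) lay in shared regions but outside the Negative peaks, at their edges or between them. Of the 21.5 Mb in the Negative list, 2.49 Mb (11.6%) lay in Negative only regions and 1.33 Mb (6.19%) in shared regions outside the Low peaks. The remaining 82.2% of the Negative bases were also covered by a Low peak.

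Regions held by 1 list were narrow, and those of Low were wider than those of Negative. The median width was 285 bp for Low only (exact order-statistic 95% interval 282 to 287 bp, quartiles 199 and 417 bp) and 227 bp for Negative only (224 to 231 bp, quartiles 169 and 325 bp). Shared regions had a median of 608 bp (604 to 612 bp), but they span the peaks of both lists and are wider in part for that reason. A width of 500 bp was reached by 3503 Low only regions (15.5%), by 598 Negative only regions (6.37%) and by 22785 shared regions (64.3%). Among the one-list regions of that width 85.4% were Low only (84.3 to 86.5%). Low peaks were the more numerous and the wider as a whole, and the part of each in this share was not tested.

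Whether a peak had a counterpart varied steeply with its width in both lists. Of the Low peaks under 150 bp, 81.0% overlapped no Negative peak, of those from 300 to 399 bp 49.3%, and of those of 1000 bp or more 3.12%. For Negative peaks the corresponding shares without a Low peak were 46.4%, 22.4% and 0.323%. In each of the 8 width classes a Low peak lacked a counterpart more often than a Negative peak of like width did. The lists differ in length, which by itself leaves more of the longer list unmatched. Wide peaks of the differentiated cells were almost all listed in Low too: of 3095 Negative peaks of 1000 bp or more, 10 had no Low peak, against 163 of 5225 in the opposite direction. The broadest open regions of the 2 populations were therefore largely common, and the one-list regions lay at the narrow end.

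**Figure D2:**
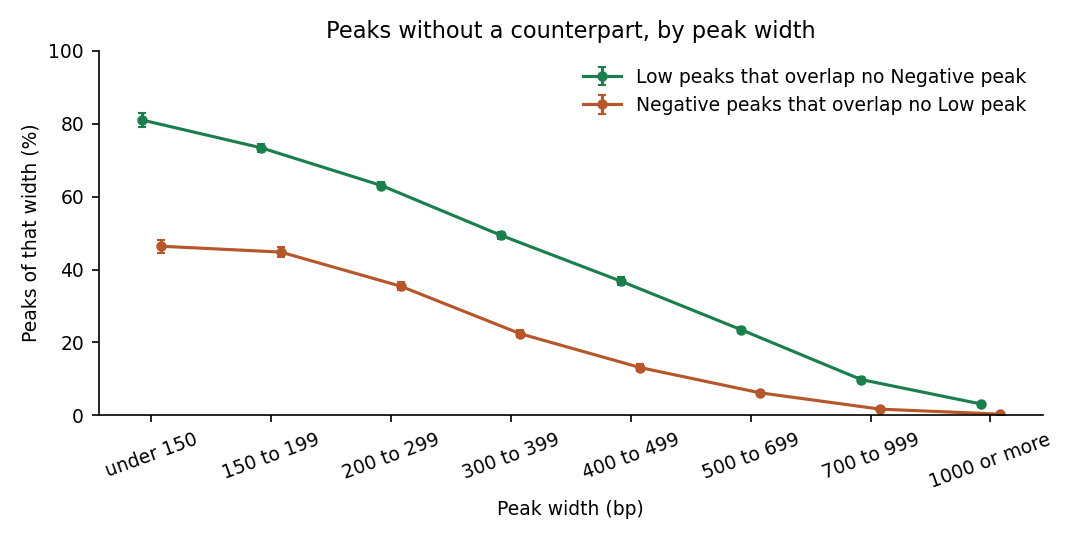
Percentage of Low peaks that overlap no Negative peak, and of Negative peaks that overlap no Low peak, by peak width in bp. Points are shares of the peaks of that width and bars are exact 95% intervals (counting error only). Both curves fall with width, from 81.0 to 3.12% in Low and from 46.4 to 0.323% in Negative, and Low lies above Negative in every width class.

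Where both populations had a region open, the Low peak was usually the wider. Of the shared regions, 34651 (97.7%) held 1 peak of each list. In these the median width was 565 bp in Low (561 to 570 bp) and 464 bp in Negative (460 to 468 bp). The log2 ratio of the Low width to the Negative width had a median of 0.20 (0.19 to 0.20), or 1.15-fold, with quartiles at 0.00 and 0.54. The Low peak was wider in 25862 regions (74.6%, 74.2 to 75.1%), the Negative peak in 8642 (24.9%), and 147 had equal widths. The extension was alike on each side, with a median of 30 bp at the left edge and 30 bp at the right. In 58.6% of these regions the Negative peak lay inside the Low peak, in 14.4% the Low peak lay inside the Negative peak, and in 26.8% the peaks were staggered. The overlap covered under 50% of the narrower peak in 112 regions (0.323%). The narrower peak lay wholly within the wider in 73.2%, so this measure does not show how much of the wider peak was covered. With a reciprocal overlap of 50%, which counts both peaks, 30068 regions were shared, against 35461 by the rule used here.

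The difference in width was larger in proportion below 500 bp and more regular at wide regions. In regions with a mean peak width from 250 to 499 bp, the log2 ratio of widths (Low over Negative) had a median of 0.29 (0.27 to 0.30) and 69.3% had the wider peak in Low. At 1000 bp or more the median log2 ratio was 0.12 (0.11 to 0.13), and 83.8% had the wider peak in Low. A Low peak at least 2 times as wide as its Negative counterpart was found in 3817 regions (11.0%), and the reverse in 781 (2.25%). Width stands in only loosely for signal, which the lists do not give.

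**Figure D3:**
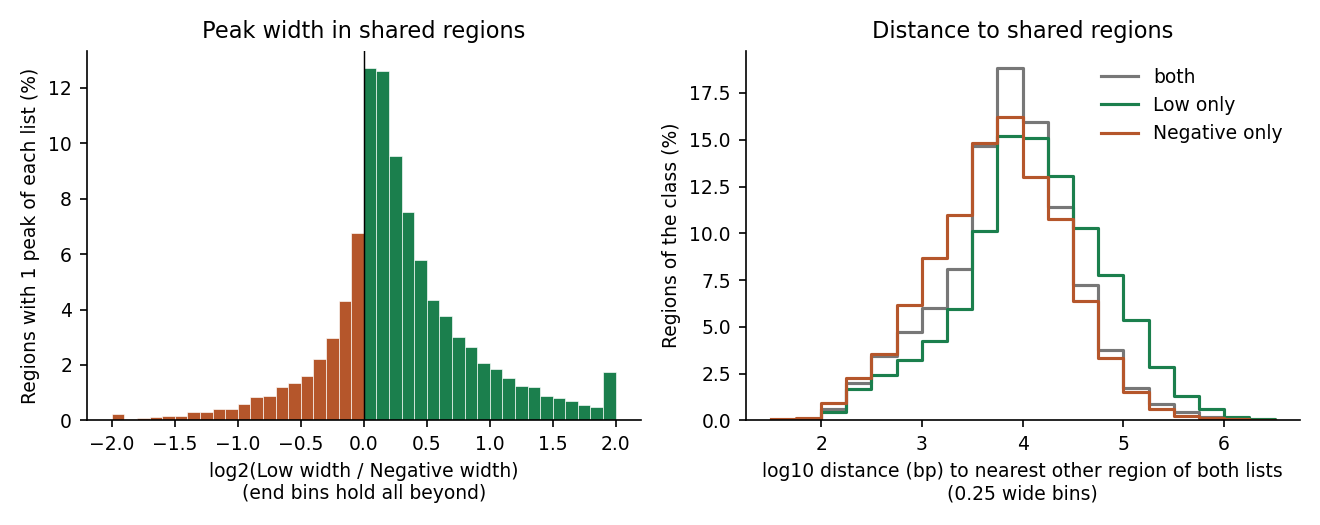
Left, log2 ratio of Low to Negative peak width in the 34651 regions with 1 peak of each list, in bins of 0.1, with green bars where Low is wider. Right, distance in bp (log10 axis) from the regions of each class to the nearest other shared region. The ratio is shifted to the right of 0 with a median of 0.20, and the Low only curve lies at larger distances than the Negative only curve.

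The strongest width differences illustrate both directions. The 5 largest log2 ratios on either side all rested on a peak of at most 32 bp in 1 list, among them a region of chromosome 11 from 6505483 to 6505858 with 376 bp in Low and 1 bp in Negative. The lists hold few such slivers (84 Low and 64 Negative peaks under 50 bp), so the strongest ratios among the 29453 regions where both peaks reached 200 bp were added after the values had been seen. In that set the Low peak extended farthest beyond its counterpart on chromosome 16 from 84971779 to 84973433, with 1655 bp in Low and 215 bp in Negative. Chromosome 1 from 9554029 to 9555639 (1611 against 221 bp) and chromosome 14 from 26426186 to 26427825 (1640 against 232 bp) followed. The Negative peak was the wider by most on chromosome 1 from 158908302 to 158909291, with 990 bp in Negative and 209 bp in Low. Next came chromosome 6 from 67172887 to 67173741, with 855 bp in Negative and 200 bp in Low. These are broad open regions in one population of which a short part was listed in the other.

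In a few shared regions 1 population had a continuous peak and the other had separate ones. A single Low peak spanned several Negative peaks in 587 regions, and a single Negative peak spanned several Low peaks in 212. The widest region with 1 Low and 3 Negative peaks lay on chromosome 1 from 156944568 to 156946987, where the Low peak covered 2420 bp and the Negative peaks 1318 bp in all. Next in width were chromosome 13 from 37917519 to 37919800 (2056 bp in Low, 1609 bp in Negative) and chromosome 14 from 57429876 to 57431785 (1858 and 1587 bp). In the other direction, 1 region on chromosome 19 from 38425666 to 38427393 held 3 Low peaks of 1020 bp in all and 1 Negative peak of 1671 bp. Splitting was thus more frequent in the list with the narrower peaks.

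Low only regions lay farther from shared regions than Negative only regions did. The median distance to the nearest shared region was 12761 bp for Low only (12443 to 13103 bp) and 6070 bp for Negative only (5879 to 6272 bp). For shared regions the median distance to the nearest other shared region was 7617 bp (7501 to 7740 bp), between the 2 one-list classes. Within 1 kb of a shared region lay 7.88% of the Low only regions and 13.3% of the Negative only regions. Beyond 100 kb lay 2359 Low only regions (10.4%) and 245 Negative only regions (2.61%). Of the shared regions, 10.8% lay within 1 kb of another shared region and 1167 (3.29%) beyond 100 kb. At 100 kb the Negative only share was thus near that of shared regions, and the Low only share was the larger. The stem cell enriched list thus held many open regions in stretches with no shared region nearby, and the list of differentiated cells held few.

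This difference in position held at like widths and in lists cut by width to equal length. Among regions under 200 bp the median distance was 11251 bp for Low only (10760 to 11825 bp) and 5416 bp for Negative only (5120 to 5832 bp). Among regions of 500 bp or more it was 18621 bp for Low only (17480 to 19899 bp) and 7911.5 bp for Negative only (7075 to 8561 bp). Of these wide regions, 15.3% of the Low only and 2.34% of the Negative only lay beyond 100 kb. With the Low list cut to the length of the Negative list the medians were 15251.5 and 6535 bp, and with only the widest 22730 peaks per list 29367.5 and 14627 bp. Classes in cut lists refer to the peaks kept, so a Negative only region there can overlap a Low peak that was removed. In the second setting a Low only region can likewise overlap a removed Negative peak. The first cut raised Negative only regions from 9392 to 13013.

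Along the chromosomes, regions of 1 class tended to follow each other. After a Low only region the next region was Low only in 43.5%, against 33.6% of all regions, and Negative only in 10.2%, against 13.9%. After a Negative only region the next was Negative only in 19.9% and Low only in 23.3%. At short spacing the order was the same: where the next region began within 5 kb, it was Low only in 40.3% after a Low only region and in 19.2% after a Negative only region. The next region was Negative only in 22.1% after a Negative only region at that spacing, and in 12.1% after a Low only region. After a shared region at that spacing it was Low only in 25.1% and Negative only in 18.7%, so the difference for Negative only was smaller than against its share of all regions. Over all spacings each one-list class was thus followed by itself more often than its share of all regions, and by the other one-list class less often. Where the next region lay 100 kb or more away this did not hold for Negative only, which was followed by Negative only in 11.7% and by Low only in 48.5%. At that spacing the next region was Negative only in 8.84% after a shared region and in 8.77% after a Low only region. It was Low only in 47.0% after a shared region and in 53.1% after a Low only region. Set against these shares at like spacing, Negative only was still followed by itself more often. No chance value was computed for these shares.

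Among one-list regions, long uninterrupted runs were mostly Low only. Shared regions formed 1501 runs of at least 5, with 9752 regions (27.5% of the class). Of these shared runs 105 reached 10, and the longest held 23 regions. There were 633 runs of at least 5 consecutive Low only regions, which held 4106 regions (18.1% of the class), and 59 of these runs reached 10. Negative only regions formed 20 runs of at least 5 with 114 regions (1.21%), and none of these runs reached 10. Most Negative only regions (64.9%) stood alone between regions of another class, against 34.8% of the Low only regions. A more frequent class forms longer runs, and the lists cut to equal length gave 212 Low only and 58 Negative only runs of at least 5.

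The longest Low only run held 22 regions over 332 kb of chromosome 4 from 62732583 to 63064531. The regions in it were 157 to 1395 bp wide, with a median of 376.5 bp, and 7 reached 500 bp. Its widest region lay from 62832378 to 62833772 (1395 bp), followed by one from 62876273 to 62877217 (945 bp). No Negative peak was listed within the run, which was bounded by shared regions 18543 bp before and 6672 bp after it. The second longest Low only run, with 19 regions over 557 kb of chromosome 13 from 111200644 to 111757797, ended 246 bp before a shared region. The third, also with 19, spanned 761 kb of chromosome 5 from 75784072 to 76544960 and contained a region of 1495 bp from 75970582 to 75972076. It included a gap of 203 kb with no region of either list.

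The 3 longest Negative only runs were shorter and denser than the 3 longest Low only runs. Runs tied in length were taken by shorter span, which favours dense ones, and gaps over all runs were not compared. A run of 9 regions covered 58.6 kb of chromosome 6 from 115977759 to 116036310, with widths of 152 to 369 bp. Another run of 9 covered 62.1 kb of chromosome 19 from 32105081 to 32167209, with widths of 146 to 418 bp. The third held 7 regions over 126 kb of chromosome 4 from 55746245 to 55872605, of which 1 reached 500 bp. The median gap between neighbouring regions was 5.60 kb in the first of these, 4.04 kb in the second and 6.08 kb in the third. In the 3 longest Low only runs it was 13.5, 21.5 and 23.2 kb.

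Counted in fixed windows of 100 kb, Low only regions occurred without the other population more often than Negative only regions did. Of 13970 windows with any region, 2556 had Low only regions and no Negative peak, and these held 4201 regions (18.5% of the class). Only 329 windows had Negative only regions and no Low peak, with 404 regions (4.30%). At least 3 Low only regions with no Negative peak were found in 384 windows, and at least 3 Negative only regions with no Low peak in 14. Both one-list classes occurred together in 3969 windows. The longer list meets more windows by its length alone.

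Among windows with a shared region, the share of Low only regions was lower the more shared regions a window held, and that of Negative only regions stayed between 12.9 and 14.7%. In windows with 1 shared region Low only made up 45.6% of the regions, with 2 to 3 shared regions 33.7%, with 4 to 6 26.3%, and with 7 or more 18.9%. Over the same windows the Negative only share was 13.1%, 14.7%, 14.3% and 12.9%. The mean number of Negative only regions per window rose from 0.316 to 1.62 over this range, and that of Low only regions from 1.10 to 2.38. The shared regions that define these windows are part of the denominator, so some fall of a share follows from the construction. This construction enters the share of each one-list class, and its part in either share was not tested.

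Dense groups of one-list regions were found in a limited number of windows. At least 5 Low only regions fell in 807 windows and at least 5 Negative only regions in 163. This order was the opposite in lists of equal length, with 166 windows for Low only and 391 for Negative only in the Low list cut to the length of the Negative list. With only the widest 22730 peaks per list there were 5 and 38. Both settings also changed the widths of the peaks kept, so length and width cannot be told apart there. In both, the Negative only regions included some whose Low peak had been removed by the cut. For the distances and the long runs the values of Low only were the larger in both settings.

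At least 10 Low only regions fell in 15 windows, of which 5 are described, with ties at 10 going to windows with fewer other regions. The window with the most Low only regions lay on chromosome 5 from 121000001 to 121100000, with 12 of 19 regions (63.2%) and a median width of 187.5 bp. Read against the 33.6% of all regions, the next windows were more nearly exclusive. Chromosome 7 from 81500001 to 81600000 had 11 of 12 regions Low only, with a median width of 396 bp and no Negative only region. Chromosome 15 from 101200001 to 101300000 had 11 of 15. On chromosome 4 from 62800001 to 62900000 all 10 regions were Low only, with a median of 518 bp, and this window lies inside the longest Low only run. Chromosome 1 from 135800001 to 135900000 had 10 of 11, among them regions of 705 bp from 135805322 to 135806026 and 704 bp from 135817769 to 135818472.

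At least 8 Negative only regions fell in 8 windows, of which 3 lay on chromosome 19. The 5 described here, to be read against 13.9% of all regions, include 2 of the 5 windows tied at 8, taken by the same rule. The first, from 32100001 to 32200000, had 10 of 12 regions Negative only with a median width of 198 bp, and holds the run of 9 described above. The second, from 32500001 to 32600000, had 10 of 16 and 6 shared regions, and its widest Negative only region covered 615 bp from 32555722 to 32556336. Chromosome 11 from 78200001 to 78300000 had 9 of 14 with the largest median width of these windows, 463 bp. Chromosome 17 from 34600001 to 34700000 had 8 of 13, and chromosome 19 from 57400001 to 57500000 had 8 of 13 with a median of 199.5 bp. The windows on chromosome 5 and on chromosome 19 consisted largely of narrow peaks. With peaks of at least 200 bp the first Low only window retained 5 regions of its class, and the 3 chromosome 19 windows retained 5, 5 and 4. The windows on chromosomes 4, 7 and 11 retained 9, 9 and 8. With only the widest 22730 peaks per list, the window on chromosome 4 kept 5 of 5 regions in its class and that on chromosome 11 had 6 of 8, while that on chromosome 7 had 1 of 2.

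**Figure D4:**
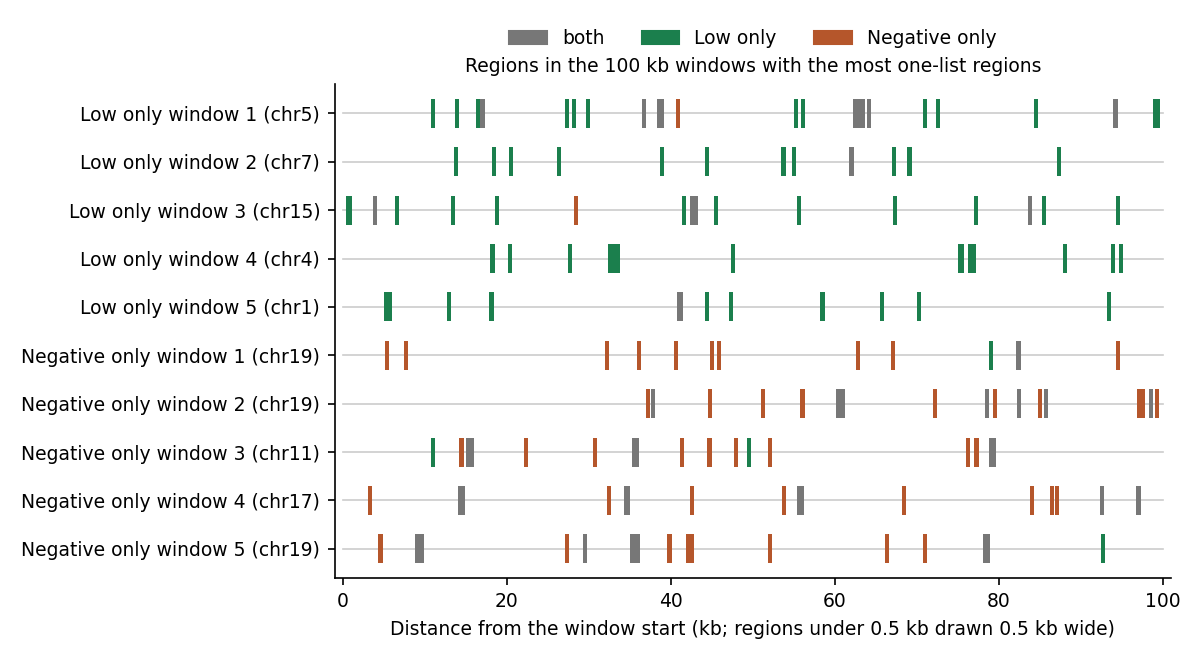
Position of every region in the 5 windows of 100 kb with the most Low only regions and the 5 with the most Negative only regions, as distance in kb from the window start. Grey marks shared, green Low only and brown Negative only regions; the fourth Low only window (chromosome 4) holds no region of another class.

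The widest one-list regions were broader than the median shared region. The widest Low only region covered 2019 bp of chromosome 13 from 60277156 to 60279174 and lay 64999 bp from the nearest shared region. It was followed by 1791 bp on chromosome 9 from 114471516 to 114473306, 1714 bp on chromosome 1 from 180457625 to 180459338, 1631 bp on chromosome 10 from 94406265 to 94407895 and 1586 bp on chromosome 3 from 86723312 to 86724897. The last of these was 106369 bp from a shared region, and the one on chromosome 1 was 1181 bp from one. The widest Negative only region covered 1642 bp of chromosome 19 from 43867170 to 43868811. Next came 1607 bp on chromosome 6 from 129040661 to 129042267, 1269 bp on chromosome 7 from 63166707 to 63167975, 1175 bp on chromosome 1 from 31099705 to 31100879 and 1157 bp on chromosome 6 from 28419806 to 28420962. These 5 lay 4883 to 22246 bp from a shared region.

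Every autosome had more Low only than Negative only regions, at ratios from 1.89 on chromosome 19 to 3.09 on chromosome 15. The Negative only share was highest on chromosome 19, at 16.0% (exact 95% interval 14.5 to 17.6%), and lowest on chromosome 15, at 11.4% (10.3 to 12.7%), against 13.9% overall. The Low only share was highest on chromosome 18, at 36.0% (34.0 to 38.0%), and lowest among the autosomes on chromosome 19, at 30.3% (28.4 to 32.3%), against 33.6% overall. The X chromosome, with 34.4% Low only and 12.7% Negative only, was near the whole. Of 20 regions on Y, 14 were shared and 3 were in each one-list class. On chromosome 19 a single stretch of 1 Mb, from 32000001 to 33000000, held 36 Negative only and 14 Low only regions. Without that stretch, which was left out after the values had been seen, the Negative only share of the chromosome was 15.1% (13.6 to 16.7%) and the ratio 2.06.

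**Figure D5:**
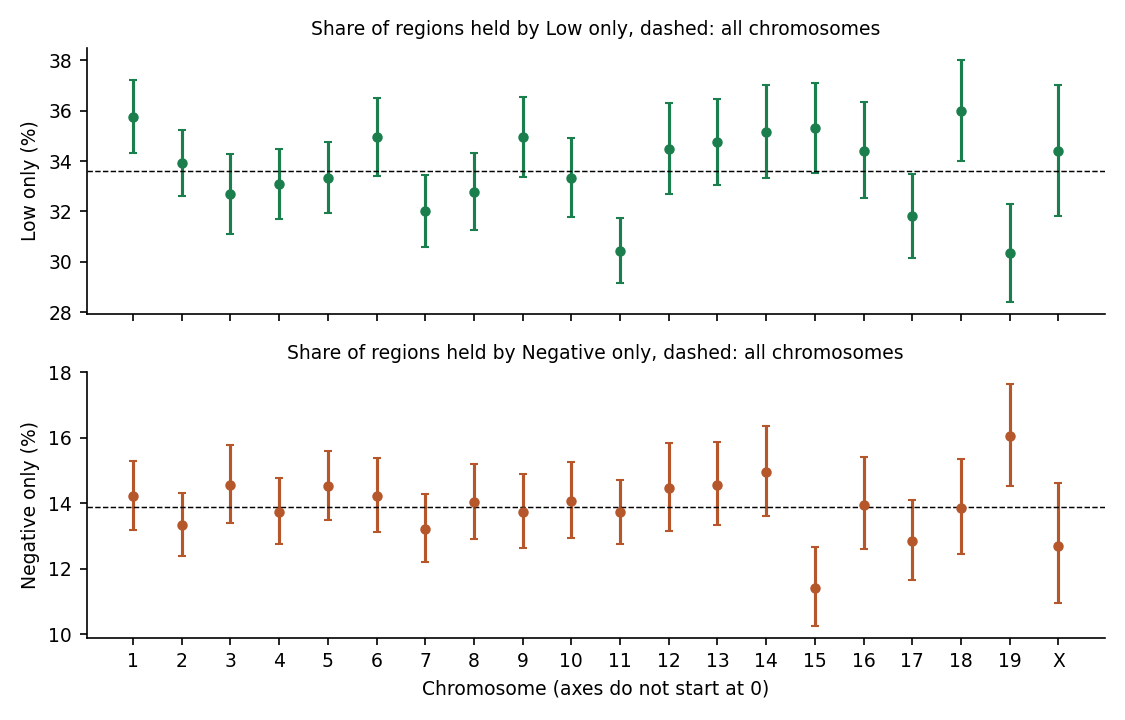
Share of the regions of each chromosome that were Low only (top) and Negative only (bottom), in percent, with exact 95% intervals (counting error only) and the share over all chromosomes as a dashed line. Chromosome 19 has the highest Negative only share (16.0%) and chromosome 15 the lowest (11.4%); Y, with 20 regions, is not drawn.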

How the data were processed

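For each population the authors deposited a single list of consensus peaks, with chromosome, start, end and peak name for each peak and no score. The lists of Sox9 Low and Sox9 Negative were used, standing for 3 libraries each. Per the submitters' processing notes, MACS2 2.1.2, Bowtie2 2.3.4, Trim Galore 0.4.3, deepTools 2.5.2, Picard 2.10.3 and the mm9 build were used. The settings, any shift of cut sites and the way libraries were combined are not given in the sources used here, and depth is unknown. Since 1 peak in each list starts where it ends, positions were read as counted from 1 with the end included. Peaks were merged into regions, and shares have Clopper-Pearson intervals of 95%. Medians have exact binomial order-statistic intervals. A region was placed in a 100 kb window by its centre.

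Regions named are those leading each class in windows, runs, width, width ratio or splitting. Ties in run length went to the shorter span, and ties in splitting to the wider region. The comparison and these rules were chosen with earlier results of these data known. No mm9 genome and no mm9 annotation were used, so no gene, promoter, sequence or motif was analysed. Merging was tested on simulated lists with 67524 regions, of which 100% received the right class. These regions were taken from the same merging of the real lists, and each shared region was given 1 peak of each list. The result therefore follows largely from the construction, and regions with several peaks of a list were not covered. Computations used Python 3.11.15 with scipy 1.17.1, pandas 2.3.3, numpy 2.4.6 and matplotlib 3.10.9.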

Additional observations from a re-analysis of the deposited data

How the results depend on the processing

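No paired analysis was possible because the lists carry no values of single libraries, which also means that no library could be left out in turn. Alternatives for genes, transcription starts and motifs need mm9 sequence or annotation and were not run. The Low only regions stayed farther from shared regions than the Negative only regions, and the Low peak stayed the wider in most shared regions, under every alternative that gave these values. Runs of at least 5 also stayed more numerous for Low only than for Negative only. The order of dense windows was the opposite in the settings with lists of equal length, where Negative only regions included some whose Low peak was removed. In all, 70 values moved by over 1.5 times (counts and the Jaccard index) or beyond their exact interval, and 95 did not. A limit of 50 bp on peaks and the omission of 1 Mb of chromosome 19, both chosen after seeing the data, moved none. The intervals are narrow because the regions are many, and they do not cover differences between libraries. Closed chromatin and too few reads cannot be told apart where a list lacks a peak.

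With a reciprocal overlap of 50%, Negative only regions numbered 15393, shared regions made up 40.8%, and Low only regions 64.8% of one-list regions, or 81.3% at 500 bp or more. The median log2 width ratio was 0.16, the Low peak was wider in 73.5%, and the median Low only width was 314 bp. Median distances were 14372 bp (Low only) and 7977 bp (Negative only). Dense windows numbered 1422 and 534, and Negative only runs 31. The Negative only share was 20.9% over all chromosomes, 18.4% on chromosome 15 and 22.5% on chromosome 19.

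Merging of peaks up to 500 bp apart gave 53.9% shared and 13.3% Negative only regions, 71.3% Low only among one-list regions, a wider Low peak in 75.1%, a median Low only width of 291 bp, and distances of 13845 and 6714.5 bp. Distances from centre to centre were 13278.5 and 6574.5 bp. Peaks of at least 200 bp gave 74.9% Low only among one-list regions, a log2 width ratio of 0.17, median widths of 344 bp (Low only) and 300 bp (Negative only), distances of 14612 and 7105 bp, 10 Negative only runs, 68 dense Negative only windows, and Negative only shares of 11.9% (all chromosomes), 9.95% (chromosome 15) and 14.1% (chromosome 19).

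The widest 22730 peaks of each list gave 16646 shared, 6068 Low only and 5984 Negative only regions, that is 58.0% shared and 50.3% Low only among one-list regions, or 71.4% at 500 bp or more. The log2 width ratio was 0.18 and the Low peak was wider in 83.4%. Median widths were 640 and 478 bp and distances 29367.5 and 14627 bp. There were 53 Low only and 32 Negative only runs, 5 and 38 dense windows, and Negative only shares of 20.9% (all chromosomes), 19.5% (chromosome 15) and 25.9% (chromosome 19). The narrowest peak in these lists was 526 bp in Low and 394 bp in Negative, so every Low only region reached 500 bp by construction and the share at 500 bp or more says nothing on the populations. The near equality of the one-list classes likewise follows from the equal lengths.

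The Low list cut to its widest 45461 peaks, against the whole Negative list, gave 13512 Low only regions, 54.6% shared, and 50.9% Low only among one-list regions, or 80.3% at 500 bp or more. The log2 width ratio was 0.23, the Low peak was wider in 79.0%, the median Low only width was 383 bp, and distances were 15251.5 and 6535 bp. There were 212 Low only and 58 Negative only runs, 166 and 391 dense windows, and Negative only shares of 22.3% (all chromosomes), 19.5% (chromosome 15) and 24.6% (chromosome 19). Fewer and wider Low peaks follow from the construction of this list, whose narrowest Low peak was 248 bp, so no Low peak of 500 bp or more was removed. The near equality of the one-list classes follows from the equal lengths, and Negative only regions included some whose Low peak was removed.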

Other observations

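On the scale of 1 Mb, chosen after seeing the data, the balance of the one-list classes varied along the genome. Over the whole genome 70.7% of the one-list regions were Low only. The numbers of regions reached by the lists fix the difference between the one-list classes, and enter this share without fixing it. Among 1641 windows of 1 Mb with at least 10 regions, Low only regions outnumbered Negative only regions in 1418 (86.4%), the reverse held in 162 (9.87%), and 61 had equal numbers. Low led by most on chromosome 15 from 101000001 to 102000000, with 43 Low only, 3 Negative only and 52 shared regions. Chromosome 11 from 88000001 to 89000000 had 46 Low only and 8 Negative only regions, and chromosome 6 from 94000001 to 95000000 had 40 and 4. Negative led by most on chromosome 19 from 32000001 to 33000000, with 36 Negative only, 14 Low only and 49 shared regions. Chromosome 1 from 58000001 to 59000000 had 16 Negative only and 2 Low only regions, and chromosome 11 from 78000001 to 79000000 had 29 and 17. Low leading in most windows goes with its overall share, and no chance value was computed for the windows.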
